A study of Mus musculus with 10 samples.

Results

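The genes described here encode the proteins of the cytosolic ribosome and were measured by RNA-seq in livers of tumour-bearing mice with and without cachexia. Members were the protein-coding genes whose symbol follows the Rpl, Rps, Rplp or Rpsa pattern and that had at least 10 counts in at least 5 livers. Of the 43629 genes in the deposited table, 88 had such a symbol, 83 of these were protein coding and 80 reached the count threshold. These 80 members comprise 48 genes of the large subunit and 32 of the small subunit, spread over 19 chromosomes with 4 of them on the X chromosome. The symbol rule leaves out Fau, which encodes a ribosomal protein fused to a ubiquitin-like moiety, and Rack1, a scaffold protein of the small subunit, and these are given with the related genes.

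All 10 livers came from adult male KL mice on an FVB background, an inducible model of lung cancer whose alleles, homozygous loxP-flanked Lkb1 among them, are recombined by Cre. Lung tumours were induced in every mouse by intranasal adenovirus that expresses Cre from the CMV promoter, so no liver without a tumour-bearing host was measured, and the viral promoter is not restricted to 1 cell type. The 5 NCACS mice (numbers 11 to 15, labelled non-cachectic) had weight changes between -3% and -14%, and the 5 CACS mice (numbers 16 to 20, labelled cachectic, the cancer anorexia-cachexia syndrome) between -29% and -33%. The groups were thus defined by weight loss, and food intake and tumour burden per mouse were not analysed here.

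Ribosomal proteins assemble with ribosomal RNA in the nucleolus into a small subunit, which reads the mRNA, and a large subunit, which joins the amino acids. Their mRNAs are short, abundant and start with a 5′ terminal oligopyrimidine (TOP) motif, a run of C and T bases through which the mTORC1 pathway and LARP1 control their translation and stability. In the liver, ribosome content is known to follow feeding and the rate of protein secretion. Messenger RNA levels do not measure ribosome number or translation.

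Livers were sequenced to between 31459179 and 40746178 counts. Levels below are CPM, counts relative to the TMM-scaled size of each library. Differences are log2 fold changes of CACS over NCACS livers with their standard error (SE), from the quasi-likelihood test of edgeR fitted to 14143 genes, and p-values were adjusted over all of these by the Benjamini-Hochberg method. The livers differed in how strongly counts depended on the GC content of a transcript. On 11977 genes that are no members, the slope of this trend, in log2 units per 10% of GC, was positive in NCACS mice 11, 12 and 13 (0.06, 0.07 and 0.18) and in CACS mice 19 and 20 (0.15 and 0.15), and negative in NCACS mice 14 and 15 (-0.23 and -0.25) and in CACS mice 16, 17 and 18 (-0.03, -0.03 and -0.07). No batch is named in the labels. Because the slopes of each sign occur in both groups, main results are given also after removal of each liver's trends on GC content and length. They are given as well with the slope sign as a term, a setting added after seeing the data. The sign does not equalize the slopes between groups. Among livers of negative slope, NCACS mice 14 and 15 lay lower than CACS mice 16, 17 and 18.

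Ribosomal protein mRNAs stood at higher levels in CACS than in NCACS livers across both subunits. Of the 80 members, 76 had a positive log2 fold change (95.0%, against 49.4% of all genes tested). The median log2 fold change was 0.26 for the large subunit and 0.29 for the small subunit, which correspond to 1.196-fold and 1.22-fold, beside a median of -0.0053 over all genes. The middle of the distribution was narrow, with quartiles of 0.19 and 0.33 over all members. The count of members that rose was 6 and the count that fell was 0. The 6 risers were 7.50% of members, beside 1.89% of all genes tested that were higher in CACS livers, and 1.92% of all genes were lower. At an unadjusted p under 0.05, 48 members were higher and 0 lower, against 11.3% of all genes higher. DESeq2 called 30 members higher and 0 lower (4.75% of all genes were higher by that tool), and limma-voom called 6 higher and 0 lower (1.68% of all genes were higher). In 25 members (14 of the small and 11 of the large subunit) every CACS liver lay above every NCACS liver, beside 3.95% of all genes, and in 0 members every CACS liver lay below. In bulk tissue, more ribosomal protein mRNA per cell and a larger share of cells rich in it cannot be told apart.

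The number of calls changed when single livers were left out. The share of all genes called in these fits is not given here, so a loss of power with fewer livers and dependence on single livers cannot be told apart. It was 0 without NCACS mouse 11, 12, 13 or 14 or without CACS mouse 20, 1 without CACS mouse 19 and 2 without NCACS mouse 15 or CACS mouse 16, 17 or 18, whereas between 71 and 78 members had a positive log2 fold change in these fits. Once the GC and length trends were removed, 27 members rose and 0 fell (3.59% of all genes were higher), and all 6 members called as counted were among them. With the slope sign as a term, 34 rose and 0 fell (4.65% of all genes were higher).

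Medians over the members differed from liver to liver within each group. The median deviation of the 48 large subunit genes from their mean log2 CPM was 0.02, -0.09, -0.07, -0.25 and -0.22 in NCACS mice 11 to 15. In CACS mice 16 to 20 the same median was -0.0004, 0.15, 0.06, 0.08 and 0.36. Thus CACS mouse 16 lay just below NCACS mouse 11, and the groups overlapped only there. The small subunit gave medians of -0.01, -0.12, -0.04, -0.27 and -0.22 in the NCACS mice and 0.0085, 0.19, 0.07, 0.10 and 0.37 in the CACS mice, and here the groups did not overlap. CACS mouse 20 held the highest level of 56 of the 80 members, and NCACS mice 14 and 15 together held the lowest level of 54. With the trends removed, the median deviation over all members was between -0.28 and -0.02 in NCACS livers and between 0.04 and 0.36 in CACS livers.

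**Figure D1:**
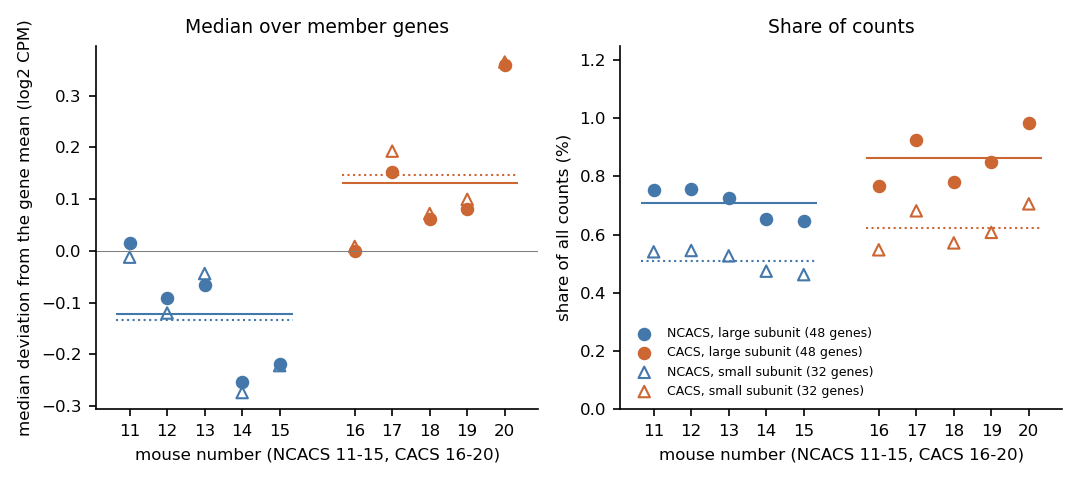
Each point is 1 liver, by mouse number, with circles for the large and triangles for the small subunit. The left panel gives the median deviation of the members from their mean over livers (log2 CPM) and the right panel their summed share of all counts (%), with lines at the group means. CACS mouse 20 is highest and NCACS mice 14 and 15 are lowest in both panels.

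As a share of all counts, the members took 1.295, 1.301, 1.254, 1.13 and 1.11% of the NCACS libraries and 1.32, 1.61, 1.35, 1.46 and 1.69% of the CACS libraries. The lowest CACS value, from mouse 16, was just above the highest NCACS value, from mouse 12. Means were 1.22 ± 0.0924% (SD, n = 5) and 1.48 ± 0.161% (SD, n = 5), a ratio of 1.22. Large subunit genes accounted for 0.708 ± 0.0538% and 0.862 ± 0.0926% and small subunit genes for 0.510 ± 0.0389% and 0.623 ± 0.0686% (SD, n = 5 each), with ratios of 1.22 and 1.22.

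The members that passed the threshold belong to both subunits. Rps6, the small subunit protein that S6 kinases phosphorylate downstream of mTORC1, was at 165, 158, 146, 157 and 160.0 CPM in NCACS mice 11 to 15 and at 192, 225, 205, 197 and 239 CPM in CACS mice 16 to 20. Every CACS liver lay above every NCACS liver. Its level rose by a log2 fold change of 0.43 (SE 0.091, adjusted p = 0.0311, edgeR), a gain of 34.4%. Rps27, a zinc-binding protein of the small subunit, stood at 161, 148, 161, 149 and 177 CPM in NCACS and at 183, 235, 221, 219 and 251.8 CPM in CACS livers. Here too the groups were apart, with a log2 fold change of 0.48 (SE 0.10, adjusted p = 0.0318, edgeR), the highest of the 80. Rps27a, made as a fusion with ubiquitin, was at 148 to 172 CPM in NCACS livers and 192 to 245 CPM in CACS livers (log2 fold change 0.40, SE 0.099, adjusted p = 0.0494, edgeR).

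Of the large subunit, Rpl5 binds the 5S ribosomal RNA together with Rpl11, and the free complex of these is known to restrain the p53 inhibitor MDM2. Rpl5 was measured at 144, 136, 124, 145 and 156 CPM in NCACS livers and at 187, 216, 181, 169 and 220.3 CPM in CACS livers. The groups did not overlap, and its log2 fold change was 0.47 (SE 0.10, adjusted p = 0.0358, edgeR). Its partner Rpl11 was at 202 to 241 CPM in NCACS and 227 to 300.3 CPM in CACS livers, which overlapped, with a log2 fold change of 0.29 (SE 0.10, adjusted p = 0.120, edgeR). Rpl23, on the face of the large subunit that meets the small one, was at 217 to 247 CPM in NCACS livers and 286 to 355 CPM in CACS livers (log2 fold change 0.44, SE 0.097, adjusted p = 0.0359, edgeR). Rpl6 stood at 173, 155, 159, 135 and 142 CPM and at 181, 205, 189.7, 210.1 and 238 CPM, a log2 fold change of 0.42 (SE 0.10, adjusted p = 0.0487, edgeR).

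The 6 calls lay close to the threshold. Rpl6 lost its call with RLE factors, upper-quartile factors, raw library totals and factors without the 10 most abundant genes (adjusted p = 0.0521, 0.0507, 0.0510 and 0.0506, edgeR), and Rps27a with upper-quartile factors and raw totals (adjusted p = 0.0511 and 0.0630, edgeR). Rps6, Rps27 and Rpl5 each kept an adjusted p under 0.05 in 3 of the 10 fits with 1 liver left out, and Rpl23, Rpl6 and Rps27a in 0. For each of the 6 the exact permutation p over all assignments of the livers was 0.00794, the smallest that 5 against 5 livers can give. Any gene whose groups do not overlap has this p, as all 25 such members do, so it adds no support to the calls. Rps18 had a larger log2 fold change than most of them (0.45, SE 0.12) and an adjusted p of 0.0614 (edgeR), with 85.9 to 114 CPM in NCACS and 121 to 169.6 CPM in CACS livers.

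**Figure D2:**
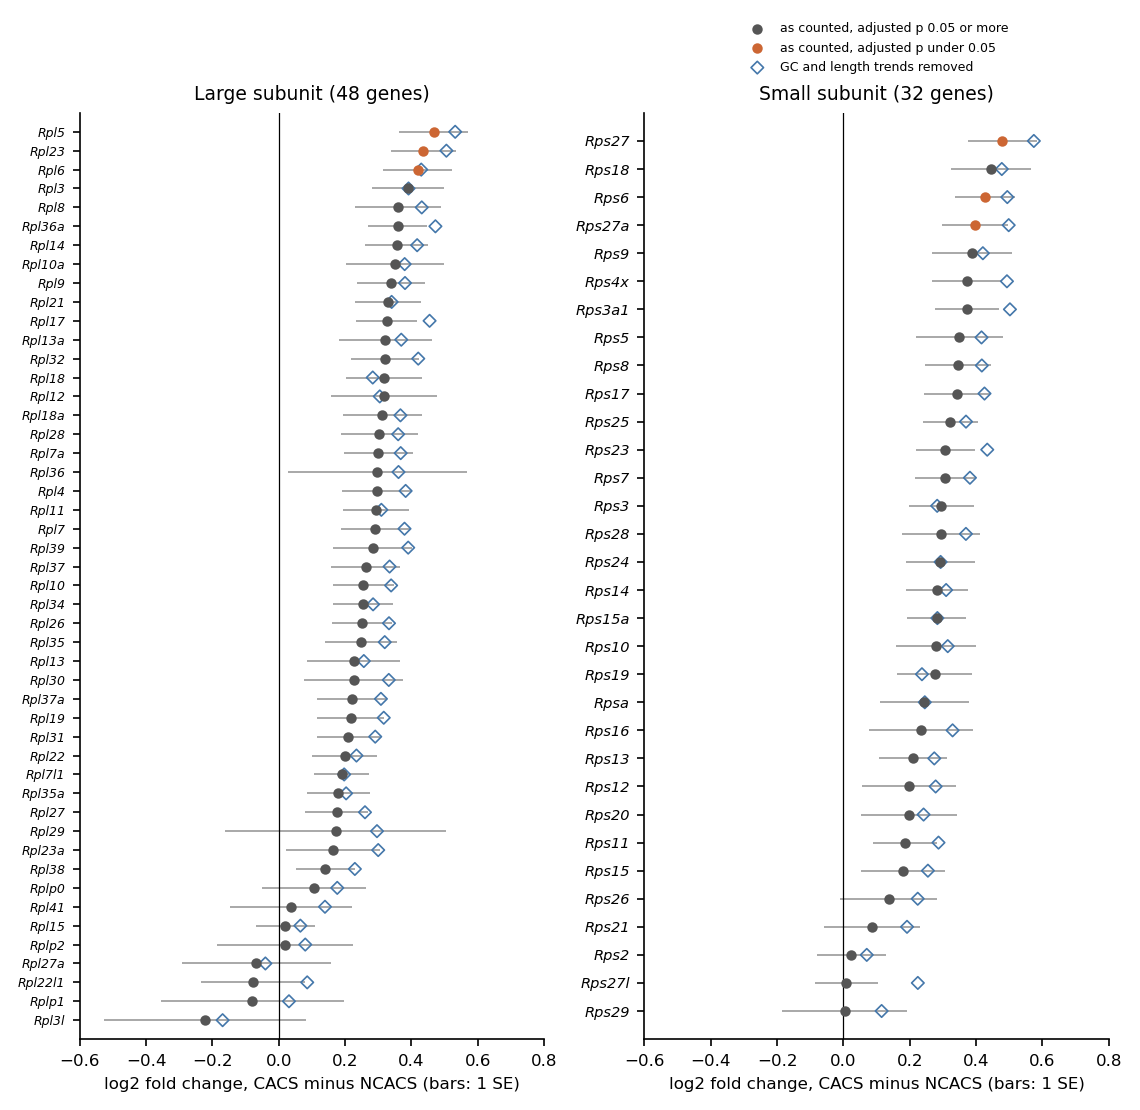
Each row is 1 member of the large (left, 48 genes) or small subunit (right, 32 genes), ordered by log2 fold change of CACS over NCACS livers. Filled points with bars of 1 SE are the values from counts as deposited, orange where the adjusted p was under 0.05, and open diamonds are the values with GC and length trends removed. Most rows lie between 0.2 and 0.5, and Rpl3l, Rplp1, Rpl22l1 and Rpl27a lie below 0 as counted.

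A smaller number of members showed little difference in level. In 11 members the log2 fold change was under 0.1, and they included the acidic stalk proteins Rplp1 and Rplp2, which recruit translation factors to the large subunit. Rplp1 was at 291, 250.2, 314, 138 and 126 CPM in NCACS mice 11 to 15 and at 174, 176, 158, 279 and 271 CPM in CACS mice 16 to 20. The groups overlapped fully, and the high livers, 11, 12, 13, 19 and 20, were those with a positive GC slope. The log2 fold change was -0.08 (SE 0.28, adjusted p = 0.898, edgeR). Rplp2 showed the same pattern, at 122, 100.4, 129, 70.7 and 68.9 CPM and at 84.9, 82.9, 82.1, 122 and 126 CPM, with a log2 fold change of 0.02 (SE 0.21, adjusted p = 0.970, edgeR). Rplp0, which anchors the stalk, was at 238 to 394 CPM in NCACS and 289 to 427 CPM in CACS livers (log2 fold change 0.10, SE 0.16, adjusted p = 0.749, edgeR). Rps29, a small zinc-binding protein of the small subunit, ranged from 121 to 235 CPM and from 145 to 219 CPM (log2 fold change 0.0036, SE 0.19). Rpl27a ranged from 41.8 to 74.5 CPM and from 40.5 to 74.7 CPM (log2 fold change -0.07, SE 0.22). Others of the 11 were measured more closely, among them Rpl15 (log2 fold change 0.02, SE 0.089), Rps2 (0.02, SE 0.10) and Rps27l (0.0090, SE 0.094). With an SE of 0.16 to 0.28, Rplp0, Rplp1, Rplp2, Rps29 and Rpl27a could carry a difference as large as the median of the members without it being detectable here.

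The dependence on GC slope was not confined to these genes. Averaged over the groups, livers of positive slope exceeded livers of negative slope by a median of 0.14 log2 units over the 80 members, with a range from -0.22 (Rpl30) to 0.999 (Rpl29). The difference exceeded 0.5 in 6 members (Rpl29, Rplp1, Rpl36, Rpl27a, Rplp2 and Rps29, chosen for display after their values were seen), in each case more than the median of other genes of like GC content. Across members this difference went with GC content (Pearson's r = 0.615, Spearman's rho = 0.646, 80 genes that share the same 10 libraries). Across other genes Pearson's r was 0.464 (11977 genes), but its sign was fixed in advance, because the slopes were fitted on these same genes. The log2 fold change between CACS and NCACS livers did not go with GC content across members (Pearson's r = -0.05, Spearman's rho = -0.07). In 1 fit of all 10 livers, grouped by cachexia and slope sign, CACS was contrasted with NCACS within each sign. Within the 5 livers of positive slope, the median log2 fold changes of the large and small subunit were 0.28 and 0.28. Within the 5 of negative slope they were 0.32 and 0.37. In either contrast 0 members were called, beside 0.17% (positive) and 0.177% (negative) of all genes higher. In 73 of the 80 members the log2 fold change was positive in both sets of livers. Within the negative set the slopes still differed by group, at -0.23 and -0.25 in NCACS and -0.03 to -0.07 in CACS livers. The split therefore does not hold GC slope equal between groups.

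**Figure D3:**
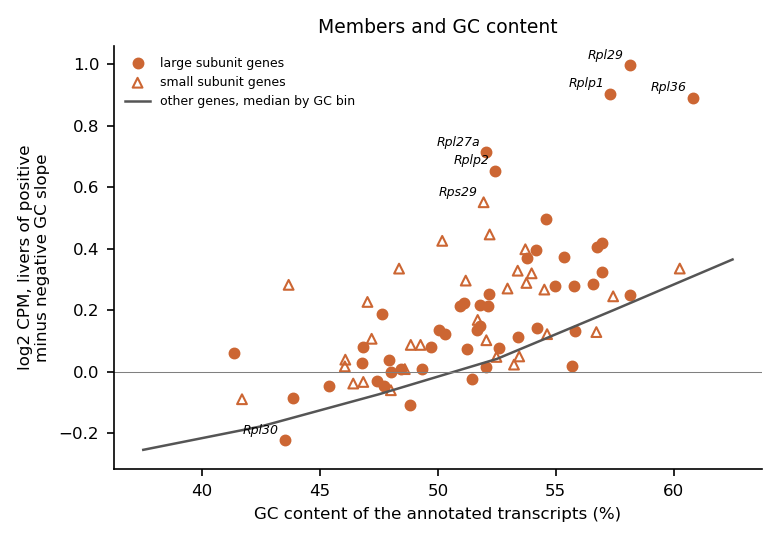
Each point is 1 member, with the GC content of its annotated transcripts (%) on the horizontal axis and, on the vertical axis, the difference in log2 CPM between livers of positive and negative GC slope, averaged over NCACS and CACS. The line is the median of other genes in bins of GC content with at least 20 genes. Rpl29, Rplp1 and Rpl36 lie far above the line.

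Compared per kilobase of mRNA, the members spanned a wide range, from 0.401 CPM per kilobase for Rpl3l to 552 for Rps27, with a median of 212. The length used was that of 1 annotated principal mRNA per gene, 2045 bases for Rpl5 against a median of 740. Which mRNA the liver expresses was not tested, so the range and the ranking depend on that annotation. In the small subunit the highest levels were those of Rps27 (552 CPM per kilobase over all livers), Rps29 (446) and Rps15 (435). In the large subunit they were those of Rpl41 (514), the shortest ribosomal protein, Rplp1 (436) and Rpl10 (411). Rps15 was at 169 to 233 CPM in NCACS and 208 to 283 CPM in CACS livers (log2 fold change 0.18, SE 0.13, adjusted p = 0.444, edgeR). Rpl41 was at 157 to 305 CPM and 203 to 279 CPM (log2 fold change 0.04, SE 0.18, adjusted p = 0.934). Rpl10, which is added late in assembly near the peptidyl transferase centre, was at 284 to 323 CPM and 319.5 to 391 CPM (log2 fold change 0.25, SE 0.092, adjusted p = 0.137, edgeR). Rpsa, also known as the laminin receptor, was at 305 to 422 CPM and 377 to 530.0 CPM (log2 fold change 0.24, SE 0.13, adjusted p = 0.315, edgeR). Of the 6 members highest per kilobase, only Rps27 passed the threshold.

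Ribosomal protein genes have many processed pseudogenes, and this limits their counts. A median of 43.2% of the 100-base windows of a member's principal mRNA occurred exactly in a transcript of another annotated gene, with 98.4% for Rps27, 91.1% for Rpl5, 83.6% for Rps6, 69.1% for Rps27a, 54.2% for Rpl6 and 23.3% for Rpl23. How reads that match several places were counted is not given in the sources used here, so the levels of these genes may be understated, and differences in level between members are uncertain. Of 257 named ribosomal protein pseudogenes, 24 passed the filter on low counts. Their summed level was 26.7 to 50.3 CPM in NCACS and 45.3 to 57.4 CPM in CACS livers. Adding the counts of named pseudogenes to those of the matching members left 6 members called. That step could change little, as the members' mean share of counts went from 1.217 to 1.222% in NCACS and from 1.484 to 1.49% in CACS livers. It cannot recover reads that were not counted, so it does not address the limit from shared sequence. Across members, the log2 fold change and the shared fraction had a Spearman's rho of 0.272 (80 genes in the same libraries).

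Some ribosomal proteins have a paralogue that can take their place or serve in assembly, and their counts were compared within each liver. Rps27 and Rps27l encode nearly identical proteins, and Rps27l is a known p53 target. Rps27l was at 122, 115, 98.8, 129.9 and 117 CPM in NCACS livers and at 108, 117, 131, 118 and 112 CPM in CACS livers, which overlapped (log2 fold change 0.0090, SE 0.094, adjusted p = 0.968, edgeR). The ratio of Rps27 to Rps27l counts was 1.31, 1.28, 1.63, 1.15 and 1.51 in NCACS mice 11 to 15 and 1.70, 2.01, 1.68, 1.85 and 2.25 in CACS mice 16 to 20. Every CACS liver lay above every NCACS liver, with means of 1.38 ± 0.193 and 1.90 ± 0.236 (SD, n = 5 each) and an exact two-sided permutation p of 0.00794 (adjusted p = 0.0318 over the 4 pairs tested). With the GC and length trends removed, the log2 difference of this ratio was 0.34 in place of 0.46 (exact permutation p = 0.0318, adjusted p = 0.127 over the 4 pairs), so that it no longer passed. Since Rps27 had already passed the threshold as a single gene, the ratio is not independent of that call.

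The other pairs overlapped between groups. Rpl22 and Rpl22l1 each bind RNA outside the ribosome and are known to regulate each other. Rpl22 was at 100.1 to 123 CPM in NCACS and 115 to 149 CPM in CACS livers (log2 fold change 0.20, SE 0.099, adjusted p = 0.271), and Rpl22l1 at 13.1 to 18.2 and 10.4 to 17.1 CPM (log2 fold change -0.08, SE 0.16, adjusted p = 0.821, both edgeR). Their ratio was 7.57 ± 1.32 and 9.33 ± 1.95 (SD, n = 5 each, exact permutation p = 0.151). Rpl7 to Rpl7l1, the latter thought to act in assembly of the large subunit, gave 4.29 ± 0.390 and 4.61 ± 0.506 (SD, n = 5 each, exact permutation p = 0.325). Rpl7 itself was at 234 to 291 CPM and 293 to 369.5 CPM (log2 fold change 0.29, adjusted p = 0.134) and Rpl7l1 at 59.0 to 67.3 CPM and 63.7 to 78.8 CPM (log2 fold change 0.19, adjusted p = 0.211, both edgeR). Rpl3, which lies at the peptidyl transferase centre, was at 179.6 to 223 CPM and 219.7 to 293 CPM (log2 fold change 0.39, SE 0.11, adjusted p = 0.0667, edgeR), whereas its paralogue Rpl3l, known from heart and skeletal muscle, had 9 to 29 counts a liver. The ratio of Rpl3 to Rpl3l was 358 ± 116 and 544 ± 177 (SD, n = 5 each, exact permutation p = 0.0635).

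The remaining 3 pairs could not be compared in this way. Rpl10l and Rpl39l, paralogues known from testis, had at most 1 and 2 counts in any liver, and Rps4l is annotated as a pseudogene. Rpl39 was at 48.2 to 58.6 CPM in NCACS and 53.8 to 78.8 CPM in CACS livers (log2 fold change 0.28, SE 0.12, adjusted p = 0.193), and Rps4x at 260.2 to 308 CPM and 306 to 399 CPM (log2 fold change 0.37, SE 0.11, adjusted p = 0.0707, both edgeR). At the count threshold, Rpl3l, the member nearest inside, had at least 10 counts in 9 livers, and Rpl24, the gene nearest outside, in 3, with 4 to 10 counts in NCACS and 5 to 18 in CACS livers. Rpl24 encodes a protein of the large subunit, and 80.1% of the windows of its mRNA occur in other annotated genes.

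**Figure D4:**
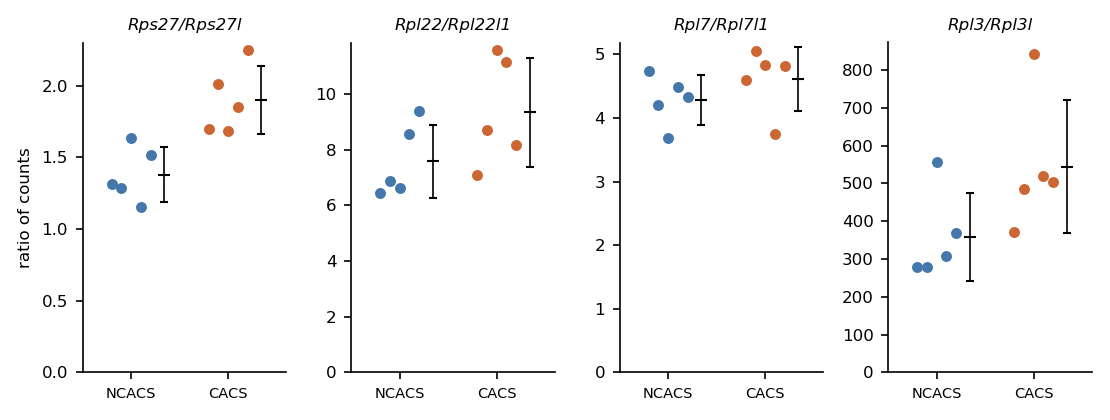
Each panel gives the ratio of the counts of a ribosomal protein gene to those of its paralogue in every liver, with the group mean and SD beside the points, on axes that start at 0. The Rps27 to Rps27l ratio is 1.15 to 1.63 in NCACS and 1.68 to 2.25 in CACS livers, and the other 3 pairs overlap.

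Sequences at the annotated start were read to see which members carry a pyrimidine run near it. The TOP motif itself requires the run to begin where transcription begins. RefSeq windows on GRCm38.p6 of 300 bases, 250 before the start and 50 from it, matched 60 of the 80 members by symbol, and the start lay within 5 bases of that of the principal GENCODE transcript in 18 of them. The longest run of C and T that touched the 5 bases on either side of the start was at least 6 bases in 28 of the 60 members (46.7%), beside 19.99% of 26962 windows of other genes. Members had the window nearest the principal start, and other genes, expressed or not, the first by position, so these shares were not taken alike. A counted run could end before the start, as in Rpl6 and Rps27l. Runs of this length were as common among members in the upper part of the ranking by log2 fold change (13 of 27, above the median of the members) as in the lower part (15 of 33). Shown are the 15 bases before and 15 from the start, 5′ to 3′ on the transcribed strand with that run in capitals. They are given for the called members with a window and for Rplp2, Rpl27a and Rps27l, picked among the members of little difference in level.
Rps27 (chr3:90213634-90213663, minus strand): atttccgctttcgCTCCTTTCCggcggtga
Rps6 (chr4:86857353-86857382, minus strand): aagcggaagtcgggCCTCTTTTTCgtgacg
Rpl5 (chr5:107900513-107900542, plus strand): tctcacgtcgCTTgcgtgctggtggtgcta
Rpl23 (chr11:97782425-97782454, minus strand): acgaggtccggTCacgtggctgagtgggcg
Rpl6 (chr5:121204486-121204515, plus strand): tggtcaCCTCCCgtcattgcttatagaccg
Rplp2 (chr7:141447636-141447665, plus strand): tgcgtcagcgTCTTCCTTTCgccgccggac
Rpl27a (chr7:109519180-109519209, plus strand): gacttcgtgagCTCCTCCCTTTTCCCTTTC
Rps27l (chr9:66946071-66946100, plus strand): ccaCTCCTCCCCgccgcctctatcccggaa

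Rps27 and Rps6, which passed the threshold, and Rplp2 and Rpl27a, with log2 fold changes of 0.02 and -0.07, all have runs of 9 bases or more at the RefSeq start. Rpl5 and Rpl23, which also passed, have runs of 3 and 2 bases there. Among members of little difference that are not shown, runs were 17 bases in Rpl15 and 10 in Rpl22l1. They were 6 bases in Rps2, 4 in Rpl3l and 3 in Rpl41. In the whole 300 bases on either strand, CCGGAAG, a core site of ETS factors, was found in 23 of the 60 members (38.3%, beside 9.01% of other windows). The string AAGATGG, part of the YY1 motif, was found in 9 of the 60 (6.44% of other windows). CACGTG, the palindromic E-box of MYC, was found in 5 (8.33%, beside 7.09%). CCGGAAG and AAGATGG can share the bases AAG. A match describes letters, not binding.

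Genes of other parts of the ribosome pathway were described from lists. Over all genes tested, 49.4% had a positive log2 fold change, and edgeR called 1.89% higher and 1.92% lower in CACS livers. The shares higher were 11.3% at an unadjusted p under 0.05, 4.75% by DESeq2, 1.68% by limma-voom and 3.59% with trends removed. Counts in the lists below stand beside these shares. Among 25 translation factors and other genes with TOP mRNAs, 24 had a positive log2 fold change, with a median of 0.23, close to that of the ribosomal proteins. In edgeR 0 of them passed in either direction, 14 were higher and 0 lower at an unadjusted p under 0.05, DESeq2 called 5 higher and limma-voom 0, and with trends removed 6 were higher. Eef1a1, which delivers aminoacyl-tRNA, was at 2254 to 3158 CPM in NCACS and 3161 to 4006 CPM in CACS livers, which did not overlap (log2 fold change 0.33, SE 0.14, adjusted p = 0.191, edgeR). The log2 fold change of Eef2, the translocase, was 0.33 (adjusted p = 0.185, edgeR) and that of Rack1 was also 0.33 (adjusted p = 0.128, edgeR). Fau, the source of a small subunit protein, was at 98.4 to 152 CPM and 141 to 210.2 CPM (log2 fold change 0.36, adjusted p = 0.180).

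Ribosome assembly genes also stood at higher levels in CACS livers. Of 51 ribosome biogenesis genes tested, 48 had a positive log2 fold change (49.4% of all genes did), with a median of 0.36. In edgeR 7 rose and 0 fell, beside 1.89% of all genes higher. Gnl3, the nucleolar GTPase nucleostemin, was at 25.9, 24.8, 19.2, 28.4 and 23.9 CPM in NCACS livers and at 36.4, 36.04, 34.5, 48.9 and 50.9 CPM in CACS livers. All CACS livers were higher, with a log2 fold change of 0.76 (SE 0.14, adjusted p = 0.0220, edgeR), and this call held in all 10 fits with 1 liver left out. Lsg1, which releases an export adaptor from the large subunit, rose by 0.46 (SE 0.094, adjusted p = 0.0279), Nop56, a core protein of box C/D snoRNPs, by 0.80 (adjusted p = 0.0323), Gtpbp4, a large subunit assembly GTPase, by 0.67 (adjusted p = 0.0323) and Nolc1, a nucleolar phosphoprotein, by 0.87 (adjusted p = 0.0341, all edgeR). The number that rose was 1 without NCACS mouse 11 or 14 or without CACS mouse 19 or 20, and 2 and 3 without NCACS mice 13 and 15. With 1 liver left out, the calls of Lsg1, Nop56, Gtpbp4 and Nolc1 held in 5, 4, 4 and 3 of 10 fits.

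RNA polymerase I, which transcribes the ribosomal RNA genes, was represented by 15 tested genes with a median log2 fold change of 0.26, of which 2 rose and 0 fell. These were Polr1b, its second largest subunit (0.47, SE 0.11, adjusted p = 0.0463), and Rrn3, which recruits it to the promoter (0.45, SE 0.11, adjusted p = 0.0435, both edgeR). DESeq2 called 6 of these genes higher and limma-voom 1, without Polr1b (adjusted p = 0.0529). Of 11 tested noncoding hosts of small nucleolar RNAs, most of which carry a TOP motif, 10 had a positive log2 fold change, with a median of 0.52, and 4 rose and 0 fell. Gas5 was at 48.3 to 71.3 CPM in NCACS and 76.1 to 85.9 CPM in CACS livers (0.52, adjusted p = 0.0291), and Snhg6 at 4.63 to 5.52 and 6.96 to 8.67 CPM (0.59, adjusted p = 0.0220). Snhg12 (0.59, adjusted p = 0.0374) and Snhg15 (0.94, adjusted p = 0.0497, all edgeR) also rose. DESeq2 called 6 of the hosts higher and limma-voom 3, without Snhg15 (adjusted p = 0.0744). With 1 liver left out, Snhg6 passed in 9 of 10 fits, Gas5 in 3, Snhg12 and Snhg15 in 2 each and Polr1b and Rrn3 in 1 each. Of 15 chaperones, importers and partners of ribosomal proteins, edgeR called 0, with 6 higher and 0 lower at an unadjusted p under 0.05, 4 higher by DESeq2, 0 by limma-voom and a median of 0.13.

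Regulators of these genes were split in direction. Among 27 genes of mTORC1 signalling and TOP control the median log2 fold change was 0.03, and 1 gene passed, Sesn3, a sestrin that restrains mTORC1, which fell by 0.80 on the log2 scale (SE 0.20, adjusted p = 0.0459, edgeR). Mtor was at 51.5 to 83.7 CPM in NCACS and 56.0 to 77.8 CPM in CACS livers (log2 fold change -0.05, adjusted p = 0.873), Larp1 at 113 to 176 and 143 to 164 CPM (0.10, adjusted p = 0.655) and Eif4ebp1 at 28.6 to 34.9 and 30.1 to 38.3 CPM (0.04, adjusted p = 0.834, all edgeR). Phosphorylation, through which this pathway acts, was not measured. Of 10 genes of the MYC network, Mlxip rose (0.64, adjusted p = 0.0359), Mxd4, a MYC antagonist, fell by 0.37 on the log2 scale (adjusted p = 0.0385, both edgeR), and Myc varied widely, from 1.596 to 28.2 CPM in NCACS and 4.27 to 13.01 CPM in CACS livers (log2 fold change -0.18, SE 0.66). With 1 liver left out, Mlxip passed in 3 of 10 fits and Sesn3 and Mxd4 in 1 each.

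The proteins of the mitochondrial ribosome, which form a separate ribosome, were read for comparison. Of 76 tested, 28 had a positive log2 fold change, with a median of -0.05. In edgeR 0 passed in either direction, 1 was higher and 1 lower at an unadjusted p under 0.05, and DESeq2 and limma-voom each called 0. Differences between lists were not tested.

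**Figure D5:**
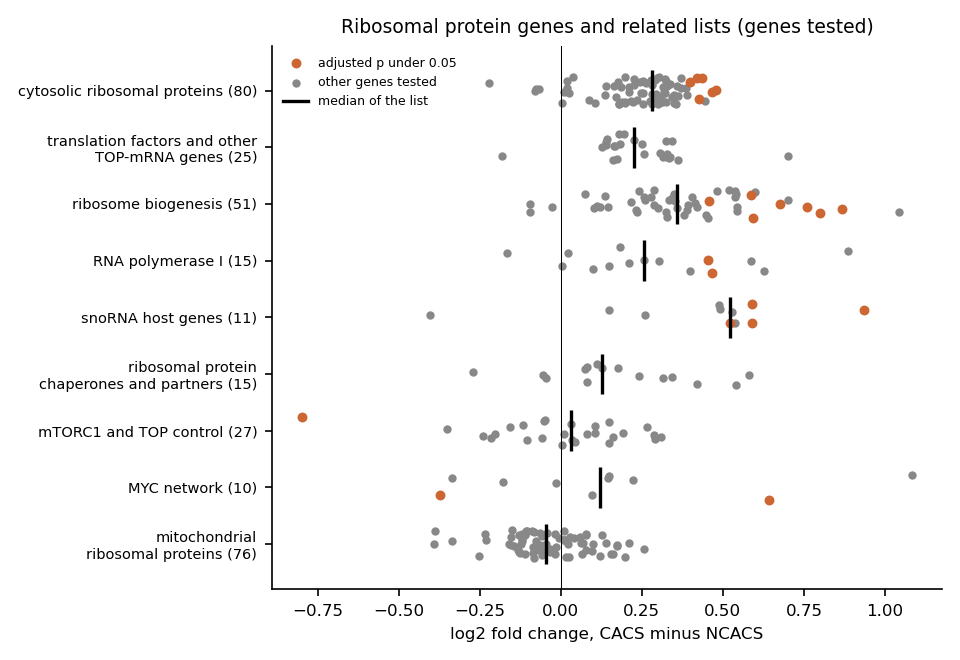
Each point is 1 tested gene, placed by its log2 fold change of CACS over NCACS livers, with orange for an adjusted p under 0.05 and a black bar at the median of the list. Medians are 0.28 for cytosolic ribosomal proteins, 0.36 for ribosome biogenesis, 0.52 for snoRNA host genes, 0.03 for mTORC1 and TOP control and -0.05 for mitochondrial ribosomal proteins.

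Markers of the cell types in the liver moved with the comparison too. Beside them, edgeR called 1.89% of all genes higher and 1.92% lower in CACS livers. All 8 Kupffer cell markers had a negative log2 fold change, with a summed level of 189.9 to 327 CPM in NCACS and 117 to 242 CPM in CACS livers, and 1 of them, Cd5l, fell (-0.90, adjusted p = 0.0374, edgeR). Of 8 hepatocyte markers, 7 had a positive log2 fold change, with 74350 to 124000 CPM and 117700 to 143100 CPM in sum, and 1 of them, Hnf4a, rose (0.50, adjusted p = 0.0435, edgeR). Albumin alone took 4.49 to 8.51% of all counts in NCACS and 8.76 to 10.45% in CACS livers, so this sum depends heavily on 1 gene. T and NK cell markers (4 of 5 tested negative, 8.81 to 21.1 against 5.80 to 12.9 CPM), B and plasma cell markers (7 of 7 negative, 19.4 to 46.2 against 13.4 to 22.2 CPM) and neutrophil markers (3 of 3 negative, 3.91 to 18.5 against 2.12 to 5.82 CPM) lay at low levels, and in edgeR 0 of them passed, with 2, 3 and 3 lower at an unadjusted p under 0.05, 1, 1 and 2 lower by DESeq2 and 0 by limma-voom. Their part in the ribosomal protein levels was not tested. Erythroid, endothelial, stellate, cholangiocyte and proliferation markers had 0 calls in edgeR, DESeq2 and limma-voom, with 0, 0, 2, 1 and 0 lower and 0, 0, 0, 0 and 1 higher at an unadjusted p under 0.05, and summed levels that overlapped. Of 3 tested lung epithelial markers, 2 had a positive and 1 a negative log2 fold change. Their summed levels overlapped, at 1.63 to 5.55 CPM in NCACS and 1.80 to 8.02 CPM in CACS livers. Of the 3, Sftpa1, a surfactant protein gene, rose from a mean of 1.41 to 3.42 CPM (log2 fold change 1.27, adjusted p = 0.0323, edgeR). This call was not made by limma-voom (adjusted p = 0.0584). With 1 liver left out, Sftpa1, Cd5l and Hnf4a passed in 3, 2 and 1 of 10 fits. No marker of these lists was at 0 in every liver.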

How the data were processed

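Libraries were made by the submitters from poly(A) RNA of whole liver with a stranded kit and sequenced as single reads. Per the labels and the methods, the authors aligned reads with STAR 2.4.1d to GRCm38 and counted them per Ensembl gene with HTSeq 0.6.1. The annotation release, the strand setting and the handling of reads that match several places are not given in the sources used here. The authors deposited raw counts per gene without normalization, with 0 columns that were not used. DESeq2 is also named in the processing notes.

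Symbols, gene types and lengths came from GENCODE M21 (GRCm38), which lacked 1081 of the identifiers. The raw counts that the authors deposited were fitted in edgeR 4.0.16 (R 4.3.3) (filterByExpr, TMM, quasi-likelihood test, Benjamini-Hochberg adjusted p under 0.05, prior count of 2 for log2 CPM), with limma 3.58.1 and DESeq2 1.42.0 as alternatives. Trends on GC content and log length were fitted per liver with splines of 4 degrees of freedom on genes of at least 1 CPM and removed through offsets. GC content was known for 99.5% of tested genes. The scripts were tested on simulated data.

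The members and lists were chosen with earlier results of these data known. Genes named were members past the threshold, the 5 highest and 5 lowest log2 fold changes at a mean of at least 5 CPM, the 3 highest per kilobase in each subunit, canonical and paralogue pairs, the stalk proteins, Rpsa, Rps6, Rpl5 and Rpl11, the genes nearest the count threshold, and from each related list up to 5 past the threshold plus a few fixed genes, of which 1 is not reported here. The remaining member names (Rpl15, Rpl29, Rpl30, Rpl36, Rps2) and the DESeq2 counts were added after values were seen. Livers are labelled as separate mice. No pair of livers in a group was 1 library deposited again, with a chi-square per degree of freedom of at least 50.7 between any of them. The batch correction in the methods was not applied, since the labels name no batch for these livers.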

Additional observations from a re-analysis of the deposited data

How the results depend on the processing

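No paired analysis was possible because each mouse number occurs in 1 group only. The median log2 fold changes of both subunits and the share of counts kept their direction under every alternative run. They also stayed within 1 SD between the CACS livers. For the large and small subunit this SD was 0.139 and 0.139 log2 units, beside medians of 0.26 and 0.29. It is not the error of a difference between groups, so this is a loose criterion. The 6 members called became 5 with RLE factors or without the 10 most abundant genes and 4 with upper-quartile factors or raw totals. They became 30 with DESeq2 (4.75% of all genes were higher), 1 with no filter on low counts and 0 at an adjusted p under 0.01. For the fits with other factors, another filter or threshold, or 1 liver left out, the share of all genes called is not given here. A change in the members' calls there cannot be told apart from a change over all genes. With GC and length trends removed 27 were called, and with the GC trend alone removed 15 (3.56% of all genes were higher). With the slope sign as a term 34 were called, and with 1 liver left out 0 to 2. The 27 called with trends removed ranged from 9 to 24 with 1 liver left out. The 7 ribosome biogenesis genes called became 20 with DESeq2 (4.75% of all genes were higher) and 16 with both trends removed (3.59%). They became 17 with the GC trend alone removed (3.56%) and 22 with the slope sign as a term (4.65%). With 1 liver left out, the calls in this list ranged from 1 to 9. Of the members named by the rule, the following changed direction under some alternative. Rplp1 was at 0.031 with trends removed and 0.15 with the slope sign, and -0.23 to 0.072 with 1 liver left out. Rpl22l1 was at 0.086 with both trends and 0.0098 with the GC trend alone removed, and -0.15 to 0.019 with 1 liver left out. Rpl27a was at 0.076 with the slope sign, and -0.20 to 0.038 with 1 liver left out. Rps29 was at -0.0049 with RLE factors and with DESeq2, -0.0081 with upper-quartile factors, -0.0029 without the 10 most abundant genes and -1.8e-05 with at least 10 counts in every liver, and -0.10 to 0.14 with 1 liver left out. Rps27l was at -8.1e-05 with upper-quartile factors and -0.0075 with the slope sign, and -0.045 to 0.052 with 1 liver left out. Rpl41 was at -0.064 to 0.18 and Rplp2 at -0.082 to 0.14 with 1 liver left out. Of the members named after their values were seen, Rpl29 reached -0.0035, Rpl15 -0.026 and Rps2 -0.042 with 1 liver left out. The causes were not tested. Members other than Rpl3l had at least 291 counts in every liver, so that counting error matters most for Rpl3l.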
